A study of Mus musculus with 9 samples.

Results

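The 45 genes described here build and remodel actin filaments. They comprise the cytoplasmic actins, the Ena/VASP proteins, the calcium-binding actin bundler Efhd2, factors of filament turnover, the Arp2/3 complex and its activators, formins, capping protein, tropomyosins, crosslinkers, non-muscle myosin II, and the GTPase Rac1 with the kinases Rock1 and Rock2. They were taken by symbol from a fixed list of names, and 45 of 45 were found among the 53819 genes listed for each library. All 45 also passed the filter on low counts, which left 12488 genes for testing. The list was in part chosen by the CPM of Vasp and Efhd2 in these libraries, so their levels are given as a description, without a test. The other 43 were listed for their place in the pathway, with earlier results of these data known.

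Actin monomers join into polar filaments that grow at one end and are taken apart at the other. Profilin feeds monomers to that growing end, formins and Ena/VASP proteins keep it growing, the Arp2/3 complex starts branches, and capping protein stops growth. Myosin II pulls on the filaments. In the mouse morula, contraction of the cell cortex by actin and myosin helps the blastomeres to flatten against each other at compaction, and an actin-rich cap marks the outer face of the outer cells.

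RNA was sequenced from morulae of the C57BL/6J strain that had been made by in vitro fertilization, to ask how alcohol drunk by the sire before conception bears on gene expression in the embryo. The groups were morulae of sires given 6% ethanol, of sires given 10% ethanol, and of control sires, with 3 libraries each. The number of embryos and of sires behind a library is not stated, and p-values therefore measure only how far these libraries scatter, which may be technical. Levels are read counts relative to library size (CPM), on library sizes scaled by the TMM method, and levels of different genes are compared as CPM per kb of exon.

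Library totals ran from 6263465 to 27619281 counts. Of the tested genes, 2.81, 13.5 and 8.42 percent had no count in 6% ethanol 1, 2 and 3. With 10% ethanol these shares were 2.99, 3.35 and 4.45 percent, and in controls 3.76, 1.497 and 7.303 percent. The TMM factors of 6% ethanol 2 and 3 were the lowest of the 9, at 0.8397 and 0.836. The lowest Vasp and Efhd2 values also came from these 2 libraries. The part of library quality in those values was not tested. Mitochondrially encoded genes took 7.36 to 12.3 percent of counts with 6% ethanol, 10.98 to 15.5 percent with 10% ethanol and 7.05 to 10.02 percent in controls, so that the 10% ethanol libraries lay above the controls without overlap. The part of this share in the results for 10% ethanol was not tested. The header of the count column had a long form, naming the aligner, in 4 libraries (6% ethanol 1, 10% ethanol 1, 10% ethanol 2 and control 2) and a short form in 5. Across genes, which are not independent replicates, log2(CPM + 1) correlated at 0.904 to 0.920 between long-header libraries and at 0.761 to 0.853 between short-header ones. Pairs of 1 long-header and 1 short-header library correlated at 0.762 to 0.866, so short-header libraries were no closer to each other than to long-header ones. Fits within 1 header form rest on few libraries, since the long form holds 1 library with 6% ethanol and 1 control, and the short form 1 library with 10% ethanol. Each lone library is assumed to vary like the other groups. The summed morula markers, of which Klf5, Cdh1 and Gata3 were the most abundant, spanned 1992 to 2653 CPM with 6% ethanol, 1602 to 3102 CPM with 10% ethanol and 1969 to 2917 CPM in controls. Some single markers varied far more than these sums. Gata3 had 283, 165 and 5.51 CPM with 6% ethanol, 116 to 397 CPM with 10% ethanol and 63.6 to 402 CPM in controls. Cdx2 had 85.3, 10.7 and 160 CPM with 6% ethanol, 135, 126 and 11.3 CPM with 10% ethanol, and 69.1 to 93.7 CPM in controls. Differences in stage or lineage between the libraries were not tested. Of 15 cumulus and granulosa markers, cells that surround the egg, 5 had no count in any library (Fshr, Inhba, Cyp11a1, Has2 and Ptx3). The list summed to 236 to 559 CPM with 6% ethanol, 338 to 409 CPM with 10% ethanol and 260 to 316 CPM in controls, and was mostly Nr5a2, which the early embryo also expresses. Amhr2, also on this list, had 60.7 CPM in 6% ethanol 2 and 69.7 CPM in 10% ethanol 3. In the other libraries it had 0.816 to 15.1 CPM. Whether such cells were present in these libraries was not tested. Blood markers summed to at most 2.31 CPM with 6% ethanol, 1.46 CPM with 10% ethanol and 5.92 CPM in controls, and the fibroblast markers, led by Pdgfra, to at most 56.9 CPM with 6% ethanol, 61.5 CPM with 10% ethanol and 55.1 CPM in controls. Col1a2 was at 0 throughout. Oocyte markers summed to 7.83 to 18.4 CPM with 6% ethanol, 14.6 to 47.3 CPM with 10% ethanol and 12.5 to 30.9 CPM in controls.

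Summed over the 45 genes, the share of a library's counts was 0.529 to 1.05 percent with 6% ethanol, 0.758 to 1.03 percent with 10% ethanol and 0.851 to 1.26 percent in controls. The ranges overlapped. Per kb of exon, gamma-actin (Actg1) and beta-actin (Actb) stood at the top, with medians over the 9 libraries of 343 and 329 CPM per kb. The cytoplasmic tropomyosin Tpm4 followed at 147 CPM per kb, the Arp2/3 subunit Arpc5 at 125 and the capping protein subunit Capzb at 113. At the other end were the Ena/VASP member Evl at 0.299, the kinase Rock1 at 1.39, the myosin light chain Myl12b at 1.55 and filamin A (Flna) at 1.70 CPM per kb. Of the thymosins, which hold actin monomers in reserve, Tmsb10 had a median of 8.24 CPM per kb and Tmsb4x one of 1.79. Vasp and Efhd2 lay in the middle, at 18.9 and 19.3 CPM per kb. Actb and Actg1 encode near-identical proteins and have similar coding sequences, as do Myl12a and Myl12b. Many of these genes have processed pseudogenes, so how the authors' counting assigned shared reads is uncertain for them.

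**Figure D1:**
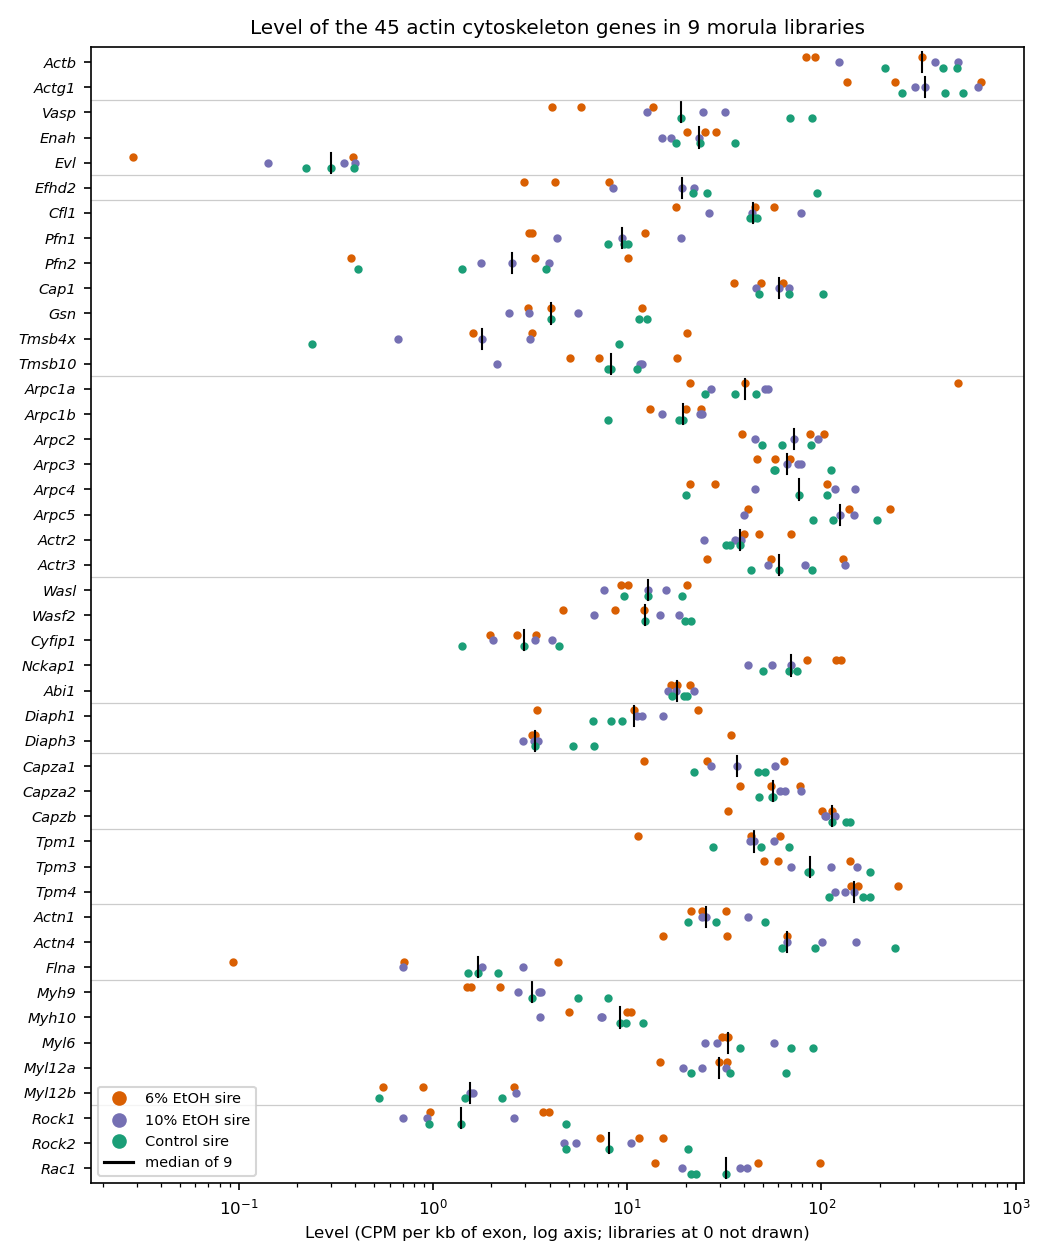
Level of each of the 45 genes in CPM per kb of exon on a log axis, 1 point per library, with 6% ethanol, 10% ethanol and control libraries in separate colours and a tick at the median of the 9 libraries. Grey lines separate the functional groups; Actg1 and Actb lie highest, at medians of 343 and 329 CPM per kb, and Evl lowest, at 0.299.

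Vasp, the founding member of the Ena/VASP family, which protects growing filament ends from capping, had 35.6, 10.7 and 15.2 CPM in the 3 libraries of 6% ethanol sires and 233, 49.5 and 181 CPM in those of control sires. With 10% ethanol it had 33.1, 64.4 and 83.7 CPM. Each 6% ethanol library thus lay below each control library, whereas the 10% ethanol libraries overlapped both other groups. These CPM stood on 840, 56 and 138 reads with 6% ethanol, 634, 1761 and 734 with 10% ethanol, and 2856, 1371 and 1234 in controls. The log2 fold change was -2.91 ± 0.73 (SE) for 6% ethanol against control, -1.36 ± 0.69 for 10% ethanol against control and 1.55 ± 0.69 for 10% against 6% ethanol. In RNA of whole embryos, fewer cells that express a gene and less RNA per cell cannot be told apart.

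Header form moved with the size of the Vasp difference. The only long-header 6% ethanol library had 35.6 CPM and the only long-header control 49.5 CPM, and a fit to long-header libraries gave a log2 fold change of -0.47 for 6% ethanol against control. Short-header Vasp values were 10.7 and 15.2 CPM with 6% ethanol and 233 and 181 CPM in controls, with a log2 fold change of -4.01. With header form as a term in the fit to all 9 libraries it was -2.77 ± 0.78. For 10% against 6% ethanol the Vasp value was 0.45 with the long header alone and 2.70 with the short. What header form contributes was not tested beyond these values.

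Efhd2, also called swiprosin-1, a calcium-binding protein that bundles and crosslinks actin filaments, had 19.2, 10.1 and 7.05 CPM with 6% ethanol and 52.0, 61.5 and 227 CPM in controls. The 10% ethanol libraries had 52.6, 20.2 and 45.9 CPM. All 3 libraries of the 6% group lay below all others of the study, and the 10% ethanol libraries overlapped the control ones. Read counts behind these values were 454, 53 and 64 with 6% ethanol, 1007, 552 and 403 with 10% ethanol, and 637, 1701 and 1550 in controls. The log2 fold change was -3.22 ± 0.77 (SE) for 6% ethanol and -1.52 ± 0.72 for 10% ethanol against control, and 1.70 ± 0.73 for 10% against 6% ethanol. Control 3 alone carried 227 CPM, and without it the 6% ethanol value was -2.25. For 6% ethanol against control, the long-header pair gave -1.67 and the short-header libraries -4.03, and for 10% against 6% ethanol these were 0.91 and 2.43.

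**Figure D2:**
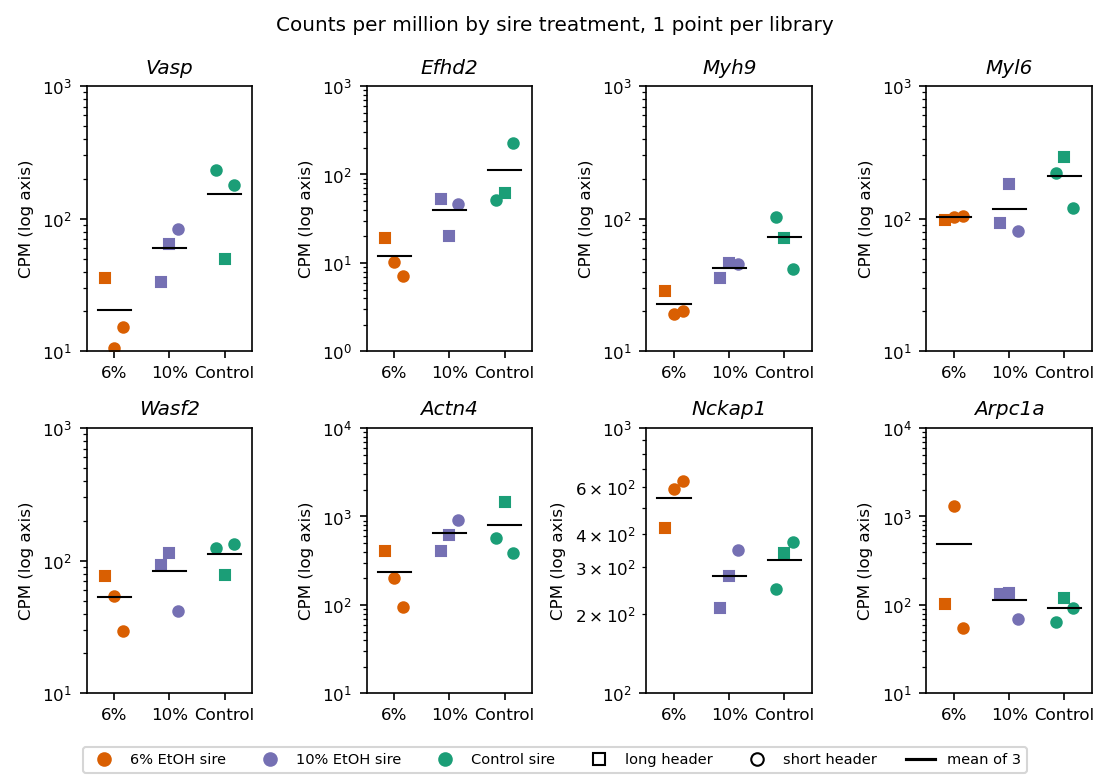
CPM of 8 genes on a log axis, 1 point per library, for 6% ethanol, 10% ethanol and control sires from left to right; squares are long-header and circles short-header libraries, and the line is the mean of 3. Vasp, Efhd2, Myh9, Myl6 and Wasf2 have every 6% ethanol library below every control library, Actn4 overlaps by 1 library, and the Arpc1a mean with 6% ethanol comes from 1 library at 1304 CPM.

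The promoter windows of Vasp and Efhd2 are shown beside those of the myosin heavy chain gene Myh9, which was also lower with 6% ethanol, and of Actg1, whose libraries overlapped. They are the RefSeq windows of build GRCm38.p6, from 250 bases before to 50 bases after the gene start, and 39 of the 45 genes had one. Actb, Rac1, Cyfip1, Diaph1, Nckap1 and Rock1 had none. Capitals mark matches on either strand to 4 motifs. These were the GC box, searched as GGGCGG, another common promoter motif, searched as CCAAT, the core of the TATA box, searched as TATAAA, and the CArG box bound by serum response factor, a main regulator of actin genes. Matches that share letters, with the same or another motif, were counted separately, and each window is printed 5′ to 3′ on the strand of its gene.
Vasp, chr7:19271805-19272104, minus strand: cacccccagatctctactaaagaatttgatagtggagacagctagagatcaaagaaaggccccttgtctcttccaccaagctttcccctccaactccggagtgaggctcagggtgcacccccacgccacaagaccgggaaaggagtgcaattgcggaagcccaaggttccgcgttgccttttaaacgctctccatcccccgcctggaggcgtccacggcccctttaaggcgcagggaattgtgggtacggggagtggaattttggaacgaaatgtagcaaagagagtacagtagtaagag
Efhd2, chr4:141874871-141875170, minus strand: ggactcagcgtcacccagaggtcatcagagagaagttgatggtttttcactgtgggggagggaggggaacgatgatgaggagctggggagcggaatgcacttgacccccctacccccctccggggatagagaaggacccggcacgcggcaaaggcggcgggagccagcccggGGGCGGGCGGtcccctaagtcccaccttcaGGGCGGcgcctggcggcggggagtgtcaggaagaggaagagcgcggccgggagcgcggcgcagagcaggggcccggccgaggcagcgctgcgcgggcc
Myh9, chr15:77842126-77842425, minus strand: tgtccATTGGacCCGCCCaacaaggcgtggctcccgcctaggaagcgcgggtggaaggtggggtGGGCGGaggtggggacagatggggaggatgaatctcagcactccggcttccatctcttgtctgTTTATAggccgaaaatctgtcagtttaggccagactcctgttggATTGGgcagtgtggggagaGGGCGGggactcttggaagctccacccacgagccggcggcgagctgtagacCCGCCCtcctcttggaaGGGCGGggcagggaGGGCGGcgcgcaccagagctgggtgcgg
Actg1, chr11:120348446-120348745, minus strand: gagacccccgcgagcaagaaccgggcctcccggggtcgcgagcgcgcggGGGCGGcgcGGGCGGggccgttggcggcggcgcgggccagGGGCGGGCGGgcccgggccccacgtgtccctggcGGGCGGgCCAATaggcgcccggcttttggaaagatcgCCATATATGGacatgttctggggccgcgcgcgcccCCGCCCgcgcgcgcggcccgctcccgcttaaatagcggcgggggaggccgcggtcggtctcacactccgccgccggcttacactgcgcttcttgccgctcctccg

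The Vasp window held none of the 4 motifs, and the Efhd2 window held 3 copies of GGGCGG. The Myh9 window had 6 copies of GGGCGG, 2 of CCAAT and 1 of TATAAA, and the Actg1 window 6 of GGGCGG, 1 of CCAAT and 1 CArG box. Among the 39 genes with a window, GGGCGG was present in 30 (76.9 percent, against 35.9 percent of the 27025 genes with a window), CCAAT in 14 (35.9 against 37.9 percent), TATAAA in 1 (2.56 against 14.2 percent) and the CArG box in 2, Actg1 and Arpc4 (5.13 against 1.57 percent). Base composition differed as well, with a median of 64.7 percent G and C in the windows of these genes and of 52.7 percent in all windows. At 54.3 percent, Vasp was among the lower ones. The 27025 windows were not limited to the 12488 tested genes, whereas all members passed the filter on low counts, so these are unlike sets. A match describes letters in the window, and no match says only that those letters are not in it.

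The Ena/VASP relatives of Vasp overlapped between the groups. Enah (Mena), the family member best known from neurons and migrating cells, had 438, 614 and 541 CPM with 6% ethanol and 509, 385 and 767 CPM in controls, with control libraries on both sides of the 6% ethanol ones (log2 fold change -0.06 ± 0.41 SE, edgeR adjusted p = 0.987). With 10% ethanol it had 361, 503 and 325 CPM (-0.48 ± 0.41, edgeR adjusted p = 0.9999). Evl stood at 0 to 1.15 CPM with 6% ethanol, 0.418 to 1.17 CPM with 10% ethanol and 0.653 to 1.16 CPM in controls. Per kb of exon, Vasp made up 39.9, 12.3 and 18.7 percent of the family with 6% ethanol, 42.7, 50.8 and 67.3 percent with 10% ethanol, and 78.8, 50.8 and 65.7 percent in controls. Per kb, Enah was thus the more abundant member in all 3 libraries of the 6% group and in 1 library of the 10% group. Vasp was so in all 3 controls. These shares are ratios within a library and do not depend on how libraries were scaled. They do rest on the exon lengths used, 21.5 kb for Enah and 2.62 kb for Vasp. In CPM not divided by length, Enah stood above Vasp in every library, controls included.

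**Figure D3:**
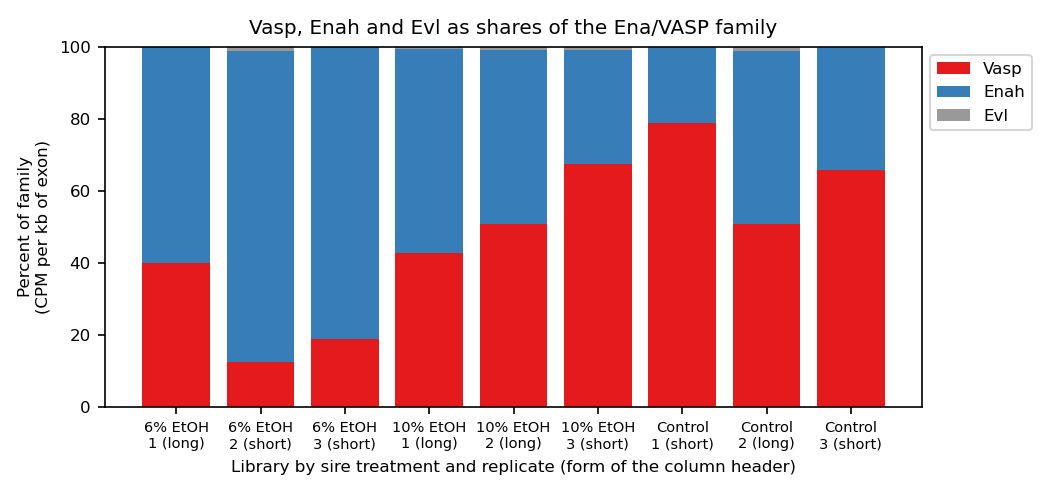
Share of Vasp, Enah and Evl in the summed CPM per kb of the Ena/VASP family, 1 bar per library, for 6% ethanol, 10% ethanol and control sires from left to right, with the header form in brackets. Vasp makes up 12.3 to 39.9 percent with 6% ethanol, 42.7 to 67.3 percent with 10% ethanol and 50.8 to 78.8 percent in controls.

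For 6% ethanol against control, the 43 genes other than Vasp and Efhd2 were tested. By edgeR's quasi-likelihood test with Benjamini-Hochberg adjustment over all 12488 genes, 0 of 43 had an adjusted p under 0.05, where 0 percent of all genes did. An unadjusted p under 0.05 was seen for 3 of 43 members, against 6.24 percent of all genes. Of these 1 was higher (Arpc1a, where 3.2 percent of all genes were) and 2 were lower (Myh9 and Actn4, where 3.04 percent of all genes were). This count was 1 without control 1 and 7 without 6% ethanol 1. DESeq2 called 0 of the 43. The median log2 fold change of the 43 genes was -0.08, beside -0.01 for all tested genes (-0.13 with Vasp and Efhd2 counted in). Of the 43, 17 lay above 0, where 49.5 percent of all genes did. Libraries of the groups did not overlap for 6 of the 43, which were higher for Actr2 and Nckap1 and lower for Wasf2, Capzb, Myh9 and Myl6. Among all tested genes 8.06 percent did not overlap, 3.35 percent higher and 4.72 percent lower. The median standard error of the 45 genes was 0.59 on the log2 scale, and differences of about that size were not detectable here. Much larger ones did not pass either, such as -1.78 for Actn4 and -1.67 for Myh9 (edgeR adjusted p = 0.799 for both).

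Non-muscle myosin II, the motor of cortical tension, had all 5 of its listed genes below 0 with 6% ethanol. Among all tested genes 49.5 percent lay above 0. The median log2 fold change of the 5 was -0.65, and values ran from -1.67 for Myh9 to -0.08 ± 1.09 SE for Myl12b. Myh9, the heavy chain of myosin IIA, had 28.7, 19.3 and 20.3 CPM with 6% ethanol and 103, 72.1 and 41.9 CPM in controls. Its log2 fold change was -1.67 ± 0.57 SE (edgeR adjusted p = 0.799), which came to -1.32 between long-header and to -1.89 between short-header libraries. The essential light chain Myl6 had 97.7, 104 and 106 CPM with 6% ethanol and 223, 289.7 and 121 CPM in controls (-1.05 ± 0.50, edgeR adjusted p = 0.802). For both genes each 6% ethanol library lay below each control, in both header forms, and neither passed. The heavy chain of myosin IIB, Myh10, overlapped, with 52.6, 110.0 and 104 CPM with 6% ethanol and 103, 96.7 and 127 CPM in controls (-0.29 ± 0.51, edgeR adjusted p = 0.935). Per kb, Myh9 made up 30.7, 12.4 and 13.6 percent of Myh9 and Myh10 together with 6% ethanol, against 44.9, 37.6 and 21.1 percent in controls. The regulatory light chain Myl12a had 49.5 to 110.4 CPM with 6% ethanol and 72.0 to 221 CPM in controls, and Myl12b 1.54 to 7.26 and 1.47 to 6.29 CPM.

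Both actins were below 0 with 6% ethanol, and neither separated the groups. Actb had 881, 248 and 223 CPM with 6% ethanol and 1130.2, 1343 and 573 CPM in controls (-1.17 ± 0.65 SE, edgeR adjusted p = 0.822). Within the long-header form the 6% ethanol library had 881 and the control 1343 CPM, and within the short-header form 248 and 223 CPM stood against 1130.2 and 573 CPM. The direction was thus the same in both header forms, and the log2 fold change with header form as a term was -1.48 ± 0.42 (edgeR adjusted p = 0.628). Actg1 had 1774, 359 and 636 CPM with 6% ethanol and 693, 1423 and 1157 CPM in controls (-0.24 ± 0.58, edgeR adjusted p = 0.957). Its long-header 6% ethanol library was the highest of the 9. Actb made up 33.0, 40.7 and 25.8 percent of both actins per kb with 6% ethanol, and 61.8, 48.4 and 32.9 percent in controls.

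The factors of monomer supply and filament turnover lay on both sides of 0, with 3 of 7 above it, beside 49.5 percent of all genes. Cofilin 1 (Cfl1), which severs old filaments, had 162, 50.8 and 129 CPM with 6% ethanol and 126, 133 and 122 CPM in controls (-0.16 ± 0.55 SE, edgeR adjusted p = 0.971). Profilin 1 (Pfn1), which loads monomers onto growing ends, had 29.8, 7.83 and 7.49 CPM with 6% ethanol and 23.1, 24.4 and 19.2 CPM in controls (-0.56 ± 0.81, edgeR adjusted p = 0.913). The 2 short-header libraries of the 6% group were low and its long-header library was high. Cap1, which recycles monomers from cofilin, was the most abundant of this group per kb, at 171, 223 and 124 CPM with 6% ethanol and 166, 357 and 238 CPM in controls (-0.55 ± 0.45, edgeR adjusted p = 0.859). Pfn2, gelsolin (Gsn), Tmsb4x and Tmsb10 had SEs of 0.80 to 1.65, and the groups overlapped for each.

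The Arp2/3 complex, which nucleates branched networks, had 6 of 8 subunit genes above 0 with 6% ethanol, at a median of 0.16. Among all tested genes 49.5 percent lay above 0. Arpc1a, a WD-repeat subunit, reached 1304 CPM in 6% ethanol 2, and had 103 and 54.3 CPM in the other 6% libraries and 64.7, 119 and 92.4 CPM in controls. Its log2 fold change of 2.40 ± 0.95 SE (edgeR adjusted p = 0.799) became -0.22 without 6% ethanol 2. The alternative subunit Arpc1b did not share that value, with 103, 124 and 67.4 CPM with 6% ethanol and 99.0, 94.7 and 41.05 CPM in controls. The actin-related protein gene Actr2 had 249, 362 and 208 CPM with 6% ethanol and 168, 177 and 198 CPM in controls, without overlap (0.59 ± 0.42, edgeR adjusted p = 0.837), and without 6% ethanol 2 its log2 fold change was 0.34. Its partner Actr3 had 598, 119.9 and 255 CPM with 6% ethanol and 201, 413 and 279 CPM in controls. Summed per kb without Arpc1a, the subunits gave 605, 482 and 306 CPM per kb with 6% ethanol and 502, 479 and 391 CPM per kb in controls, and these overlapped. Arpc5, the most abundant subunit per kb, had 318, 513 and 95.9 CPM with 6% ethanol and 439.8, 261 and 206 CPM in controls (0.03 ± 0.64, edgeR adjusted p = 0.996).

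Activators of the Arp2/3 complex differed among themselves. Nckap1, the NAP1 scaffold of the WAVE complex, had 419, 588 and 630.1 CPM with 6% ethanol and 248, 338 and 372 CPM in controls (0.77 ± 0.41 SE, edgeR adjusted p = 0.808). Wasf2, the WAVE2 subunit that contacts the Arp2/3 complex, had 76.6, 54.0 and 29.4 CPM with 6% ethanol and 125, 77.6 and 134 CPM in controls (-1.07 ± 0.57, edgeR adjusted p = 0.810). Both separated the groups, Nckap1 upwards and Wasf2 downwards, and neither passed. In the long-header pair Wasf2 gave -0.01, and in short-header libraries -1.65. Nckap1 gave 0.32 and 0.96 in the same fits. Of the other subunits, Abi1 held 67.6 to 84.8 CPM with 6% ethanol and 68.9 to 82.3 CPM in controls, and Cyfip1 held 23.5 to 40.7 and 17.0 to 53.3 CPM. N-WASP (Wasl), which answers to Cdc42, held 57.5 to 126 CPM with 6% ethanol and 59.7 to 118 CPM in controls.

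Among the genes listed as formins, capping protein, tropomyosins and crosslinkers, alpha-actinin 4 (Actn4) had the largest difference at 6% ethanol. It had 409, 201 and 93.7 CPM with 6% ethanol and 569.5, 1471 and 382 CPM in controls, so that the groups overlapped by 1 library (-1.78 ± 0.64 SE, edgeR adjusted p = 0.799). Control 2 carried the highest value, and without it the log2 fold change was -1.02. Actn1 had 135, 179 and 118 CPM with 6% ethanol and 115, 158 and 284 CPM in controls (-0.37 ± 0.48, edgeR adjusted p = 0.910). Capzb, the shared beta subunit of capping protein, had 331, 374 and 109 CPM with 6% ethanol and 441, 461 and 376 CPM in controls, which separated by a narrow margin (-0.65 ± 0.47, edgeR adjusted p = 0.839). Without 6% ethanol 3, the library at 109 CPM, the Capzb value was -0.31. The alpha subunits Capza1 and Capza2 overlapped (-0.24 ± 0.62 and 0.11 ± 0.41). The formin Diaph3 had 18.0, 18.7 and 190.0 CPM with 6% ethanol, the last of these in 6% ethanol 3, and 18.7, 37.6 and 29.3 CPM in controls. Its relative Diaph1 also had its highest value, 147 CPM, in that library. Of the tropomyosins, Tpm4 had 314, 547 and 339 CPM with 6% ethanol and 243, 359 and 391 CPM in controls (0.27 ± 0.41, edgeR adjusted p = 0.917). Tpm1 (-0.32) and Tpm3 (-0.48) lay below 0, and for all 3 the groups overlapped.

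Among the regulators, Rac1, which switches on the WAVE complex, had 211, 445 and 62.9 CPM with 6% ethanol and 145, 102 and 95.4 CPM in controls (1.07 ± 0.63 SE, edgeR adjusted p = 0.822). Its highest value and its lowest were both with 6% ethanol. The kinases that activate myosin II lay near 0, Rock1 at 0.26 ± 0.82 and Rock2 at 0.02 ± 0.60.

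**Figure D4:**
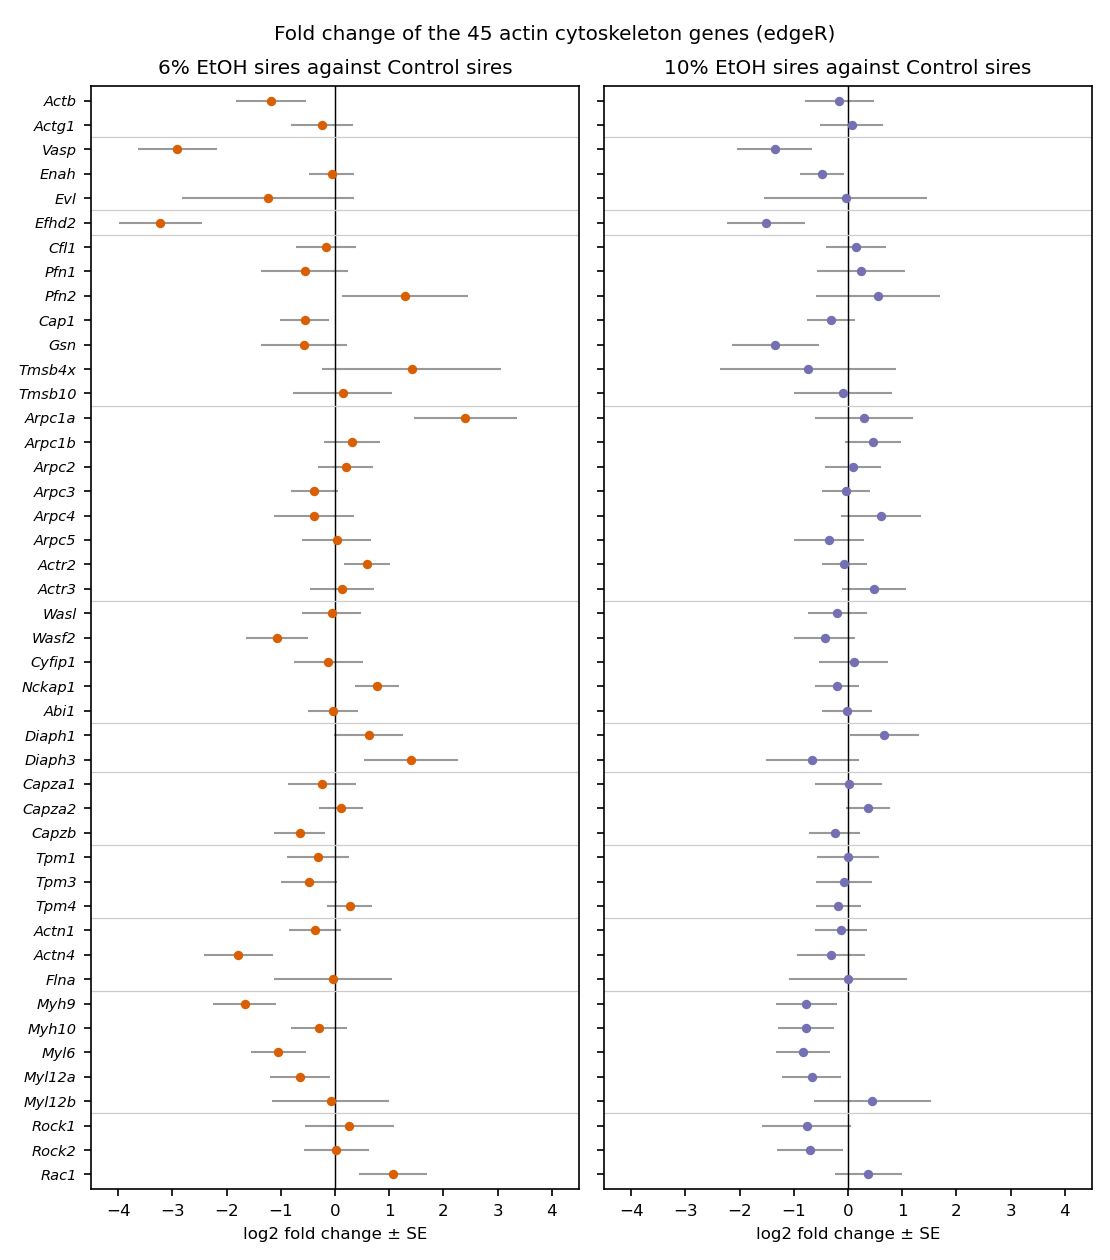
log2 fold change with its SE for each of the 45 genes, 6% ethanol against control on the left and 10% ethanol against control on the right, from the edgeR fit to all 9 libraries; grey lines separate the functional groups. Values run from -3.22 (Efhd2) to 2.40 (Arpc1a) with 6% ethanol and from -1.52 (Efhd2) to 0.67 (Diaph1) with 10% ethanol; both comparisons use the 3 control libraries.

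For 10% ethanol the same 3 control libraries served as for 6% ethanol. edgeR called 0 of 43 at an adjusted p under 0.05, with 0 percent of all genes called, and 0 of 43 at an unadjusted p under 0.05, against 2.14 percent of all genes. DESeq2 called 0 of 43 too. The median log2 fold change was -0.07 over the 43 genes and -0.05 over all tested genes (-0.09 with Vasp and Efhd2 counted in), and 16 of 43 lay above 0, beside 47.1 percent of all genes. For 3 of the 43 the groups did not overlap, against 8.06 percent of all tested genes. The formin Diaph1 and the capping subunit Capza2 were higher, where 4.39 percent of all genes were, and the myosin heavy chain Myh10 was lower, where 3.67 percent were.

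Diaph1, a formin that elongates unbranched filaments, had 71.5, 97.6 and 76.0 CPM with 10% ethanol and 59.4, 52.6 and 42.4 CPM in controls (0.67 ± 0.63 SE, edgeR adjusted p = 0.9999). Capza2 had 385, 463 and 360.5 CPM with 10% ethanol and 327, 331 and 280.5 CPM in controls (0.36 ± 0.41, edgeR adjusted p = 0.9999). Myh10 had 37.2, 77.6 and 76.4 CPM with 10% ethanol and 103, 96.7 and 127 CPM in controls (-0.77 ± 0.52, edgeR adjusted p = 0.9999). The groups separated for these 3 genes, and none passed. Myh10 came to -0.49 without 10% ethanol 1, and Capza2 to 0.24 in short-header libraries. Of the 5 myosin genes 4 lay below 0, and of all tested genes 47.1 percent lay above it. Myh9 had 35.6, 46.7 and 45.4 CPM with 10% ethanol and 103, 72.1 and 41.9 CPM in controls (-0.77 ± 0.56). Myl6 had 93.1, 182 and 80.1 CPM against 223, 289.7 and 121 CPM (-0.83 ± 0.50). Gsn, which severs and caps filaments in a calcium-dependent way, had 17.6, 9.83 and 7.75 CPM with 10% ethanol and 36.3, 40.1 and 12.8 CPM in controls (-1.34 ± 0.81, edgeR adjusted p = 0.9999). The actins overlapped. Actb had 1355, 1034 and 331 CPM with 10% ethanol and 1130.2, 1343 and 573 CPM in controls (-0.16 ± 0.64), and Actg1 lay at 0.06 ± 0.58.

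The doses were compared directly as 10% against 6% ethanol. edgeR called 0 of 43 members at an adjusted p under 0.05, with 0 percent of all genes called, and DESeq2 called 0 of 43. Of the 43, 4 had an unadjusted p under 0.05, against 5.33 percent of all genes. Actn4 was higher at 10% ethanol, where 2.25 percent of all genes were, and Nckap1, Arpc1a and Diaph3 were lower, where 3.07 percent were. This count was 0 without 10% ethanol 2 and 7 without 6% ethanol 1. The groups did not overlap for 3 of 43, beside 9.66 percent of all genes. Myh9 was higher (6.05 percent of all genes), and Actr2 and Nckap1 were lower (3.6 percent). The median over the 43 genes was 0.14 and over all tested genes -0.02 (0.21 with Vasp and Efhd2 counted in), and 25 of 43 lay above 0, where 49.5 percent of all genes did.

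Nckap1 had 209, 277 and 347 CPM with 10% ethanol and 419, 588 and 630.1 CPM with 6% ethanol (-0.97 ± 0.41 SE, edgeR adjusted p = 0.806). Actn4 had 407, 618 and 919 CPM with 10% ethanol and 409, 201 and 93.7 CPM with 6% ethanol (1.46 ± 0.63, edgeR adjusted p = 0.806), and the long-header libraries gave 0.32 and the short-header ones, with 10% ethanol 3 as their only 10% ethanol library, 2.65. Myh9 had 35.6, 46.7 and 45.4 CPM with 10% ethanol and 28.7, 19.3 and 20.3 CPM with 6% ethanol (0.90 ± 0.56, edgeR adjusted p = 0.810), and the long-header libraries gave 0.51 and the short-header ones 1.21. Actr2 lay at -0.66 ± 0.42 (edgeR adjusted p = 0.810), at -0.37 with the long header alone and -1.13 with the short, and at -0.39 without 6% ethanol 2. Nckap1 and Myh9 separated the doses in every library and Actn4 overlapped by a narrow margin. The values of Arpc1a (-2.12 ± 0.94) and Diaph3 (-2.06 ± 0.88) each rested on 1 library of the 6% group, and became 0.52 without 6% ethanol 2 and 0.02 without 6% ethanol 3. Taking the mean of both doses against control, edgeR called 0 of 43 (0 percent of all genes), DESeq2 called 0 of 43, and 2 of 43 had an unadjusted p under 0.05, against 4.08 percent of all genes. These 2, of which none was left without control 1 or without 10% ethanol 1, were Myh9 (-1.22 ± 0.47, edgeR adjusted p = 0.999) and Myl6 (-0.94 ± 0.42, edgeR adjusted p = 0.999).

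The members were also set against the header form of the library. In an edgeR fit with group and header form, 0 of 45 had an adjusted p under 0.05 for long over short header, where 0.104 percent of all genes did, and 8 of 45, against 14.8 percent of all genes, had an unadjusted p under 0.05. The members' share is close to that of all genes, so the values that follow only describe single genes. The coefficient was 1.503 ± 0.37 (SE) for Actb and 1.08 ± 0.37 for Actg1 on the log2 scale (edgeR adjusted p = 0.134 and 0.237). Actr3 stood at 598, 382, 616 and 413 CPM in the long-header libraries, all above the short-header range of 119.9 to 279 CPM. Flna, which links filaments to the membrane, and Cyfip1 were likewise higher in each long-header library, at 16.9 to 41.7 against 0.881 to 16.003 CPM and at 40.0 to 53.3 against 17.0 to 35.2 CPM. The kinases Rock1 and Rock2 went the other way. Rock1, which drives contraction through the myosin light chain, had 12.7 to 17.5 CPM with the long header and 25.2 to 87.9 CPM with the short one (-1.79 ± 0.54, edgeR adjusted p = 0.190), and Rock2 had 65.7 to 101 and 112 to 288 CPM (-1.16 ± 0.41, edgeR adjusted p = 0.2495). Rac1 overlapped between header forms (0.16 ± 0.58). This comparison was chosen after the data were seen, header form moved with library size, and the labels do not say what it stands for.

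**Figure D5:**
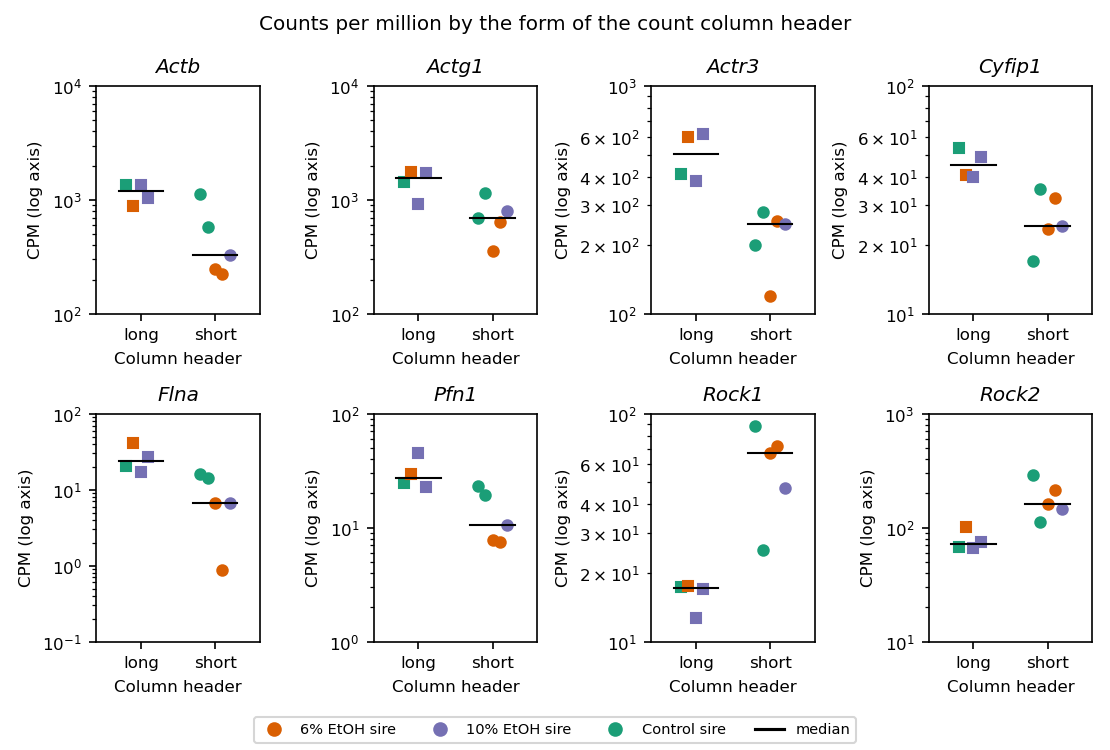
CPM of 8 genes on a log axis in the 4 long-header libraries (left) and the 5 short-header libraries (right), 1 point per library, coloured by sire treatment, with a line at the median. Actr3, Cyfip1 and Flna are higher and Rock1 and Rock2 lower in every long-header library than in every short-header one; Actb, Actg1 and Pfn1 overlap.

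Beyond the 45 genes, 77 of 93 other actin genes on a second list passed the filter on low counts. For 6% ethanol against control, edgeR and DESeq2 called 0 of 77 and 6 had an unadjusted p under 0.05 (1 higher and 5 lower), beside 6.24 percent of all genes (3.2 percent higher and 3.04 percent lower). The median log2 fold change of the 77 was -0.34, beside -0.01 for all genes. Limk2, the kinase that inactivates cofilin, had 85.8, 108 and 23.2 CPM with 6% ethanol and 236, 189.7 and 113 CPM in controls (-1.31 ± 0.59 SE, edgeR adjusted p = 0.799). Cfl2, the muscle-type cofilin, had 45.7, 96.4 and 110.5 CPM with 6% ethanol and 40.5, 42.8 and 25.2 CPM in controls (1.22 ± 0.55, edgeR adjusted p = 0.799). For both genes each 6% ethanol library lay on one side of each control. Pdlim7 (-2.88 ± 1.08) and Tln1, which couples integrins to actin (-1.89 ± 0.84), were lower with overlap, and Pdlim7 reached 247 CPM in control 2 alone.

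For 10% ethanol against control, edgeR and DESeq2 called 0 of the 77, 2 had an unadjusted p under 0.05, beside 2.14 percent of all genes, and the median was -0.06, beside -0.05 for all genes. The formin Fmnl2 had 17.1, 34.6 and 17.7 CPM with 10% ethanol and 95.4, 81.9 and 120.4 CPM in controls, without overlap (-2.10 ± 0.91 SE, edgeR adjusted p = 0.9999). With 6% ethanol it had 33.3, 303 and 15.5 CPM, a wide spread. Between the doses edgeR and DESeq2 called 0 of 77 and 3 had an unadjusted p under 0.05, beside 5.33 percent of all genes, among them Fmnl2 at -2.34 ± 0.92 (edgeR adjusted p = 0.806). Ssh2, a phosphatase that reactivates cofilin, had 28.7, 19.4 and 14.5 CPM with 10% ethanol and 32.5, 58.4 and 108 CPM with 6% ethanol (-1.67 ± 0.69, edgeR adjusted p = 0.806).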

How the data were processed

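The deposited files, 1 for each library, hold the authors' raw read counts per gene; the submitters' processing notes name featureCounts, DESeq2 and the build GRCm39. The aligner is named as RNA STAR in 4 file headers, per the file headers, and is otherwise not given in the sources used here, like versions, annotation and strand setting. Counts of overlapping and antisense genes are therefore uncertain. The 9 libraries held 6263465 to 27619281 counts, and each pair differed by more than sampling noise (chi-square per degree of freedom at least 116).

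Counts were filtered with filterByExpr by group, scaled by TMM and fitted with edgeR's quasi-likelihood model (version 4.0.16, R 4.3.3) to all 9 libraries as 3 groups without covariates. P-values were adjusted by Benjamini-Hochberg over 12488 genes at 0.05, and SEs came from the fold change and its F statistic. Standard deviations are not given where all 3 values of a group are printed. Exon lengths came from GENCODE M21, of another build, and no coordinates of the files' build were used. The test was tried on simulated counts with known changes, and how many of these it recovered is not given here. Named members were Vasp, Efhd2, their family, and those with an unadjusted p under 0.05 or groups without overlap at 10 CPM or more, plus the most abundant of a functional group. Library values of some other members, among them Actb, Cfl1, Pfn1, Gsn, Actn1, Arpc1b and Actr3, are given outside that rule. The members and lists were chosen with earlier results of these data known. Alternatives included limma 3.58.1 and DESeq2 1.42.0. 1 of the other actin genes that the naming rule selects is not reported here.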

Additional observations from a re-analysis of the deposited data

How the results depend on the processing

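No paired analysis was possible because the replicate numbers follow accession order and pair nothing. The 21 fold changes of named members were recomputed under 21 alternatives, giving 441 values, of which 435 kept their direction. These fold changes, those of Vasp and Efhd2 among them, were named for a low p or for groups without overlap in these same libraries. That choice largely fixes their direction in advance, so the count is a description and no evidence for them. For 6% ethanol against control, Arpc1a reversed to -0.22 without 6% ethanol 2 and to -0.20 in long-header libraries. For 10% against 6% ethanol, it reversed to 0.52 and 0.36 under the same settings, and Diaph3 to 0.018 without 6% ethanol 3 and 0.067 in long-header libraries. Over the libraries left out in turn, Arpc1a ran from -0.22 to 2.86 for 6% ethanol and from -2.57 to 0.52 between doses, and Diaph3 from -2.51 to 0.018.

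Members called stayed at 0 of 43 in all comparisons and alternatives except 1, Arpc1a at 6% ethanol with no filter on low counts (1 member, edgeR adjusted p = 0.0362, or 0.0362 to 1 over its alternatives). Without that filter edgeR called 140 genes for 6% ethanol, 47 for 10% ethanol, 147 between doses and 153 for both doses. DESeq2 called 53, 23, 63 and 36 genes in the same order, the long-header libraries 3, 9, 4 and 13, and the short-header ones 48, 2, 1 and 5. limma voom called 0 in each. Long-header libraries hold 1 library with 6% ethanol and 1 control, and short-header ones 1 library with 10% ethanol; each lone library is assumed to vary like the other groups.

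Leaving out each library in turn gave 0 genes called, and medians over all 45 members, Vasp and Efhd2 included, of -0.34 to -0.049 for 6% ethanol, -0.27 to 0.03 for 10% ethanol, -0.047 to 0.26 between doses and -0.24 to -0.0041 for both doses. With library size alone the 6% ethanol member median was -0.40, where all genes had -0.28. In short-header libraries the member median was -0.38 for 10% ethanol (all genes -0.19) and -0.12 between doses (all genes -0.04). Leaving out 6% ethanol 1 took the 6% ethanol median from -0.13 to -0.34. Leaving out 10% ethanol 2 took the median between doses from 0.21 to -0.047, which reversed its sign. All these shifts were larger than the spread between libraries (SD 0.212), and their cause was not tested. Among the settings other than leaving out 1 library, and apart from those named above, medians moved by less than this spread. DESeq2's call of Efhd2 at 6% ethanol is no evidence, since the gene was chosen for that value.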
